A study of Mus musculus with 12 samples.

Results

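The membrane-bound adenylyl cyclases, the enzymes that make the second messenger cyclic AMP (cAMP), were examined in mouse brain cortex. The members were the genes with the symbols Adcy1 to Adcy9, 9 of the 33024 gene symbols in the count table, and all 9 passed the filter on low counts that left 16059 genes for testing. Bulk RNA sequencing had been carried out on cortex from C57BL/6 mice in a two-bottle choice, drinking-in-the-dark paradigm, in which the animals drank at night and could choose between bottles. The 5 EtOH mice were offered 20% ethanol (v/v) from 30 days of age over 35 nightly sessions and were then kept without ethanol for 14 days. By the study's methods, behavioural testing, which included swimming and maze tasks, followed this abstinence in both groups, and the tissue was taken after it. The 7 Control mice, given as vehicle in the labels and as water in the study's methods, were of the same strain. Ethanol intake was voluntary, so the dose was not set by the experimenter, and the comparison addressed what remained in the cortex after abstinence and testing. Whether a given mouse's tissue piece held regions next to the cortex is not given in the labels.

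Adenylyl cyclases sit in the plasma membrane and turn ATP into cAMP when the stimulatory G protein alpha subunit binds them, and cAMP then activates protein kinase A (PKA), the Epac exchange factors and cyclic nucleotide-gated channels until phosphodiesterases break it down. The isoforms share that reaction but differ in what else they respond to. ADCY1, ADCY3 and ADCY8 are classed as stimulated by calcium and calmodulin, ADCY2, ADCY4 and ADCY7 as stimulated by G protein beta gamma subunits, and ADCY5 and ADCY6 as inhibited by calcium, while ADCY9 is only weakly activated by the plant compound forskolin. In the forebrain, ADCY1 and ADCY8 are known for their part in synaptic plasticity, and ADCY5 is the main cyclase of striatal medium spiny neurons.

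In the EtOH mice Adcy8 and Adcy1 mRNA rose and Adcy5 mRNA fell. Adcy8 was 2.20-fold and Adcy1 1.57-fold the Control level, and Adcy5 was 0.378 of it. Hence 2 members were called higher and 1 lower (edgeR quasi-likelihood test, Benjamini-Hochberg adjusted p under 0.05 and an absolute log2 fold change above 0.5), where 4.2% of all genes tested were called higher and 4.09% lower. A further 3 members, Adcy2, Adcy6 and Adcy9, had an adjusted p under 0.05 but stayed under the fold minimum. Counted without that minimum, 6 of the 9 members passed, against 23.7% of all genes. Adcy3, Adcy4 and Adcy7 had adjusted p-values of 0.05 or more. The median log2 fold change of the 9 members was 0.10, beside 7.2e-05 over all genes tested. In 3 members (Adcy1, Adcy6 and Adcy8) every EtOH mouse was above every Control mouse, as in 4.84% of all genes, and in 2 (Adcy2 and Adcy5) every EtOH mouse was below, as in 4.96%. These samples were pieces of whole tissue, in which fewer cells of a type and less RNA per cell cannot be told apart.

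**Figure D1:**
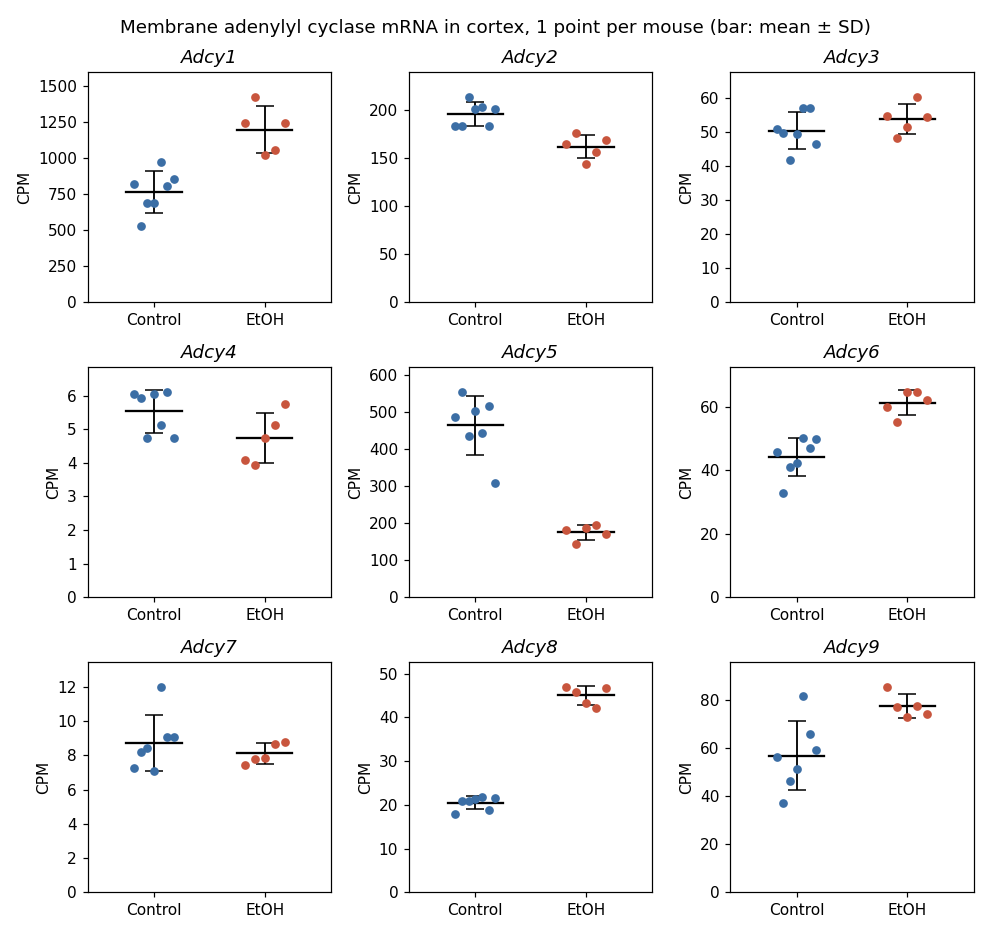
Level in CPM (counts per 1000000 counts of the scaled library, y axis from 0) of each of the 9 adenylyl cyclase genes, with 1 point per mouse in the Control (7 mice) and EtOH (5 mice) groups and bars for the mean ± SD. The groups are apart for Adcy1, Adcy2, Adcy5, Adcy6 and Adcy8 and overlap for Adcy3, Adcy4, Adcy7 and Adcy9.

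The libraries held between 31768076 and 42183029 counts, and member counts ran from 127 (Adcy4) to 53683 (Adcy1) per mouse, far above the 3 counts taken as the detection floor. Marker lists for tissues and cell types were read alongside. Every one of 18 striatum markers was called lower in EtOH, with a median log2 fold change of −2.93 and a summed level of 1543 to 3350 CPM in Control against 445.5 to 503.6 CPM in EtOH. Of 15 hippocampus markers, 10 were called higher and 0 lower, with sums of 172.6 to 210.1 CPM in Control and 317.8 to 422.4 CPM in EtOH. Markers of cortical excitatory neurons, the cells that define the labelled tissue, summed to 2602 to 3166 CPM in Control and 2551 to 3116 CPM in EtOH, with 1 of 10 called higher, 1 lower and 6 at an adjusted p under 0.05, and the log2 fold changes of the 10 ran from −0.51 to 0.60. Choroid plexus markers were called higher in 4 of 4 tested (of 6 listed), with sums of 5.706 to 16.66 CPM in Control and 10.82 to 983.8 CPM in EtOH. Among the markers of interneurons, neurons in general, astrocytes, oligodendrocytes, microglia, endothelium and blood, 1 gene was called higher and 4 lower. The mean log2 CPM of a list was apart between the groups for some of these. It was 6.32 to 6.60 in Control and 6.14 to 6.29 in EtOH for interneurons, and 9.13 to 9.32 and 9.04 to 9.12 for neurons. For astrocytes it was 7.38 to 7.49 and 7.59 to 7.70, and for microglia 4.75 to 5.05 and 4.56 to 4.67. For oligodendrocytes, endothelium and blood it overlapped. Oligodendrocyte markers had a median log2 fold change of −0.42, with 9 of 10 at an adjusted p under 0.05, and microglia markers −0.30, with 7 of 10, against 23.7% of all genes, and every marker of both lists was below 0 on that scale. No listed marker was at 0 in either group.

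Among the calcium-stimulated cyclases, Adcy8, a calmodulin-dependent enzyme found in hippocampus and cortex, had the smallest p-value of the family and the 7th smallest of all genes tested. Its Control level ran from 17.8 to 21.8 CPM with a median of 21.0 CPM, and the EtOH mice had 47.0, 45.9, 43.4, 42.1 and 46.8 CPM. The groups lay far apart and were both narrow. Mean levels were 20.5 ± 1.5 CPM in the 7 Control and 45.03 ± 2.19 CPM in the 5 EtOH mice (SD), and the log2 fold change was 1.14 (SE 0.06, edgeR adjusted p = 1.46e-09). The gene lies on the minus strand at chr15:64568933-64794987 (GRCm39), and none of its exons is shared with another annotated gene.

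Adcy1, the calcium-stimulated cyclase best known from synaptic plasticity, was the member with the highest CPM. Control mice ranged from 527.6 to 971.3 CPM with a median of 809 CPM, and the EtOH mice had 1244, 1429, 1019, 1058 and 1243 CPM. All 5 EtOH mice were above all 7 Control mice, although the lowest EtOH mouse was only just above the highest Control mouse. Averaged by group, Control mice had 766 ± 143 CPM (SD, n = 7) and EtOH mice 1199 ± 165 CPM (SD, n = 5), with a log2 fold change of 0.65 (SE 0.12, edgeR adjusted p = 0.00071). Adcy1 is on the plus strand at chr11:7013330-7128506 (GRCm39), likewise with no exon shared with another gene.

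Adcy3, the cyclase of olfactory neurons and of neuronal primary cilia, overlapped between the groups. Its Control level ran from 42.0 to 57.2 CPM with a median of 49.7 CPM, and the EtOH mice had 54.7, 48.3, 51.6, 60.6 and 54.7 CPM. The log2 fold change was 0.10 (SE 0.08, edgeR adjusted p = 0.378), so a difference was not shown. Exons of Cenpo on the other strand cover 19% of the Adcy3 exon model, and the counts may hold reads of both.

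Of the cyclases stimulated by G protein beta gamma subunits, Adcy2 was the only abundant one. Control mice ranged from 182.6 to 213.6 CPM with a median of 201 CPM, and the EtOH mice had 164.2, 175.2, 143.5, 156.2 and 168.6 CPM. Every EtOH mouse was below every Control mouse, but the difference was small, with a log2 fold change of −0.27 (SE 0.06, edgeR adjusted p = 0.00299), and the gene was not called. Cfap90 and Gm35161 on the other strand overlap 13.6% of its exon model. Adcy4, found mainly in vessels and other non-neuronal cells, was near the bottom of the family, at 4.73 to 6.12 CPM in Control with a median of 5.94 CPM and at 4.10, 3.95, 4.74, 5.13 and 5.74 CPM in EtOH. Its groups overlapped (log2 fold change −0.23, SE 0.12, edgeR adjusted p = 0.176). Adcy7, a cyclase of microglia and blood cells, ran from 7.06 to 11.99 CPM in Control with a median of 8.42 CPM, and the EtOH mice had 7.41, 7.81, 7.87, 8.67 and 8.78 CPM, all within the Control range (log2 fold change −0.11, SE 0.12, edgeR adjusted p = 0.534, and −0.020 without Control replicate 5). Brd7 on the other strand overlaps 13% of the Adcy7 exon model.

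Adcy5 and Adcy6, the calcium-inhibited pair, differed in direction. Adcy5, which carries most dopamine-receptor signalling to cAMP in striatal neurons, ran from 308.7 to 555.3 CPM in Control with a median of 487.6 CPM, and the EtOH mice had 181.7, 143.8, 186.0, 194.1 and 171.4 CPM. No EtOH mouse came near the Control range, and the lowest Control mouse (replicate 7) stood below the rest of its own group. The Control mean was 465 ± 80.0 CPM (SD, n = 7) and the EtOH mean 175 ± 19.5 CPM (SD, n = 5), which gave a log2 fold change of −1.41 (SE 0.12, edgeR adjusted p = 1.83e-07), and was −1.48 (SE 0.08, edgeR adjusted p = 2.1e-09) without that mouse. Adcy5 lies on the plus strand at chr16:34975023-35126113 (GRCm39), and Gm61320 on the other strand overlaps 7.66% of its exon model.

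Adcy6, the more widely expressed of the pair, went the other way. Control mice ranged from 32.9 to 50.3 CPM with a median of 45.8 CPM, and the EtOH mice had 59.9, 55.3, 64.7, 64.8 and 62.1 CPM. The groups did not overlap. The log2 fold change was 0.47 (SE 0.09, edgeR adjusted p = 0.000688), just under the fold minimum, and it passed that minimum when Control replicate 5, Control replicate 7 or EtOH replicate 2 was left out, at up to 0.51. Gm29331 on the other strand overlaps 8.69% of the Adcy6 exon model.

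Adcy9, the forskolin-insensitive member, varied most among Control mice, from 37.3 to 81.4 CPM with a median of 56.2 CPM, while the EtOH mice had 85.4, 76.9, 72.7, 77.4 and 74.0 CPM. The highest Control mouse (replicate 5) lay inside the EtOH range and the other Control mice were below it. The log2 fold change of 0.44 (SE 0.13, edgeR adjusted p = 0.0217) was under the fold minimum, rose to 0.55 without Control replicate 5, and had an adjusted p of 0.0561 without EtOH replicate 1. Of the Adcy9 exon model, 12% is shared with other annotated genes, among them the same-strand pseudogene Gm6142.

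**Figure D2:**
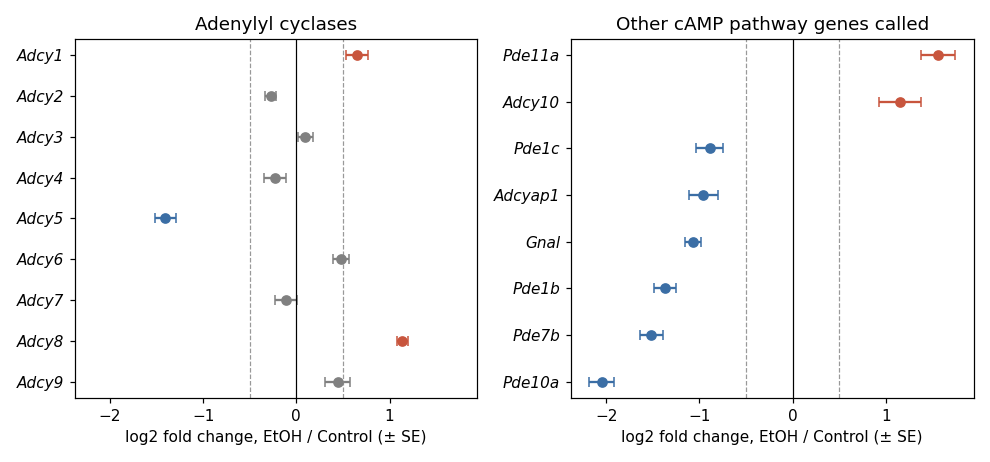
Log2 fold change of EtOH over Control with its SE for the 9 adenylyl cyclases (left) and for the other cAMP pathway genes called (right), with dashed lines at the fold minimum of 0.5 on the log2 scale. Red and blue points are genes called higher and lower, grey points are not called; Adcy8 lies at 1.14, Adcy1 at 0.65 and Adcy5 at −1.41.

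The upstream sequences of Adcy1 and Adcy5, called in opposite directions, are shown because cAMP-responsive genes are known for an element of the letters TGACGTCA in their promoters. They are the 250 bases before the RefSeq start on the plus strand, taken from the GRCm38.p6 assembly at chr11:7063183-7063432 for Adcy1 and chr16:35154614-35154863 for Adcy5, with capitals marking GC boxes (GGGCGG on either strand, written CCGCCC where it is on the other one).
Adcy1: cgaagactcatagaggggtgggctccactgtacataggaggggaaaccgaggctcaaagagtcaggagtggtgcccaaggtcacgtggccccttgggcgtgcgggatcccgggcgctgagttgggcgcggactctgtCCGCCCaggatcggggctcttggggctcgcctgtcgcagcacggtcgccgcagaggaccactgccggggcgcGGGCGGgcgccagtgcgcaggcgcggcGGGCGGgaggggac
Adcy5: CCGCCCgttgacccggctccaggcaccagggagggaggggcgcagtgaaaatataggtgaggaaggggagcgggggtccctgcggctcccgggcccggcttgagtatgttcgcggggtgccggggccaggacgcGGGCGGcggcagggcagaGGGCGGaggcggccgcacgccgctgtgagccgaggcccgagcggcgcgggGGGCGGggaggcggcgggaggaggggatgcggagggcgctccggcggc
Both windows are rich in G and C, at 71.2% for Adcy1 and 78% for Adcy5, and hold 3 and 4 GC boxes. A GC box is found in 32.7% of the 32851 RefSeq windows of the same length. TGACGTCA, which reads the same on both strands and does not overlap the GC box, is in neither window and in 1.55% of all windows. Of the members, 7 of 9 were matched in the RefSeq table, and Adcy6 and Adcy8 were not.

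Levels of different genes were compared per length, as CPM divided by the exon length of each gene in kb. In Control cortex Adcy5 at 62.7 ± 10.8 CPM per kb (SD, n = 7) and Adcy1 at 60.4 ± 11.3 CPM per kb stood well above the rest, and their values overlapped across mice. Adcy2 followed at 14.5 ± 0.917 CPM per kb and Adcy6 at 6.34 ± 0.865 CPM per kb, each apart from its neighbours. Adcy3 at 4.07 CPM per kb, Adcy9 at 3.58 and Adcy8 at 2.28 came next, and the values of neighbours in this run overlapped. Adcy4 at 1.18 CPM per kb and Adcy7 at 0.754 overlapped and were lowest. Divided by the longest coding sequence in place of the exon length, the Control order was Adcy1, Adcy5, Adcy2, Adcy3, Adcy9, Adcy6, Adcy8, Adcy7 and Adcy4. The first place, the place of Adcy6 (12.6 CPM per coding kb, below Adcy3 at 14.7 and Adcy9 at 13.8 with overlapping ranges) and the last place therefore depended on the length used.

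In the EtOH mice the order of levels per kb differed at the top and in the middle. Adcy1, at 94.5 ± 13.0 CPM per kb (SD, n = 5), was apart from Adcy5 at 23.7 ± 2.63 CPM per kb. In every EtOH mouse Adcy1 was between 3.19 and 5.81 times Adcy5, whereas in Control mice it was between 0.555 and 1.62 times. By coding length, an alternative added after seeing the data, these ratios were 6.15 to 11.2 in EtOH and 1.07 to 3.12 in Control, so that Adcy1 was above Adcy5 in all 7 Control mice on that scale. Adcy8, at 5.01 ± 0.244 CPM per kb of exon, overlapped Adcy9 at 4.87 and Adcy3 at 4.35 CPM per kb. This place held with exon length only, since per coding kb Adcy8 at 11.2 to 12.5 CPM lay below Adcy3 at 14.1 to 17.6 and Adcy9 at 17.7 to 20.7 CPM in the EtOH mice.

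With exon lengths, the summed level of the family was close between the groups while its composition was not. The 9 members summed to 156 ± 11.9 CPM per kb (SD, n = 7, 142.7 to 173.1) in Control and 155 ± 11.1 CPM per kb (SD, n = 5, 140.7 to 168.4) in EtOH. Adcy1 made up 28.6% to 47.2% of that sum in Control and 56.8% to 66.9% in EtOH. Adcy5 made up 29.2% to 51.5% in Control and 11.5% to 17.8% in EtOH. Neither range overlapped between groups. By class, the calcium-stimulated isoforms averaged 42.7% ± 6.03 (SD, n = 7) of the sum in Control and 66.9% ± 3.66 (SD, n = 5) in EtOH, and the calcium-inhibited isoforms 44.4% ± 6.52 and 21.2% ± 3.36. Most of these class shares was Adcy1 and Adcy5, and the members of a class did not move alike. The mean Adcy6 share rose from 4.07% to 5.73% while that of its class fell, and the mean Adcy3 share was 2.61% in Control and 2.83% in EtOH. The share of the isoforms stimulated by G protein beta gamma subunits averaged 10.6% in Control and 8.85% in EtOH. With the longest coding length in place of the exon length, an alternative added after seeing the data, the sum was 461 ± 41.95 CPM per kb in Control and 520.5 ± 47.1 CPM per kb in EtOH (SD), with overlapping ranges. The Adcy5 share was then 26.9% in Control and 9.02% in EtOH, the Adcy1 share 49.2% and 68.4%, and the calcium-inhibited share 29.6% and 12.4%. The sizes of the shares therefore depended on the length used, while the Adcy1 and Adcy5 ranges still did not overlap between groups. The shares within a mouse sum to the whole, so they are not independent of each other.

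**Figure D3:**
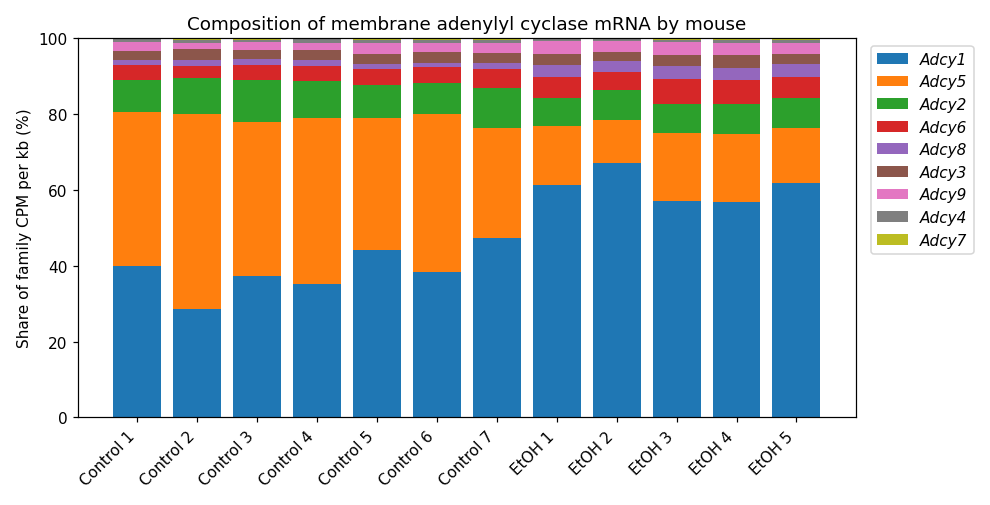
Share of the summed adenylyl cyclase level (CPM per kb, y axis in percent) taken by each member in each of the 7 Control and 5 EtOH mice, as stacked bars. Adcy1 takes 28.6% to 47.2% in Control and 56.8% to 66.9% in EtOH mice, and Adcy5 takes 29.2% to 51.5% and 11.5% to 17.8%.

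Adcy5 followed the striatum markers among the Control mice, the group with enough animals for a correlation. The striatum score, the mean log2 CPM of the 18 markers, was 5.13 to 6.40 in Control and 2.49 to 3.18 in EtOH. Within the 7 Control mice, Pearson's r between Adcy5 and this score was 0.983 (two-sided exact permutation p = 0.000992, 0.0179 after Benjamini-Hochberg adjustment over 18 relations), and Spearman's rho was 0.929 (exact permutation p = 0.00675, adjusted p = 0.121). Without Control replicates 5 and 7, the mice farthest from the median score, r was 0.976 (exact permutation p = 0.025, adjusted p = 0.45). With 5 mice the smallest exact p is 0.00833, or 0.15 for a single relation after adjustment over 18, so that the adjusted test was out of reach. Control replicate 7 had both the lowest striatum score and the lowest Adcy5. How much of the Adcy5 difference goes with the amount of striatal RNA in the samples was not tested.

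Adcy8 and Adcy1 did not show such a relation with the hippocampus markers among Control mice, where the hippocampus score only ranged from 1.76 to 2.04, against 3.45 to 4.15 in EtOH. For Adcy8 the Control r was 0.133 (two-sided exact permutation p = 0.745, adjusted p = 0.789) and rho was 0.286. Control values of Adcy8 were within 17.8 and 21.8 CPM in all 7 mice, so both measures had little spread. For Adcy1 the Control r was 0.569 (two-sided exact permutation p = 0.18, adjusted p = 0.398), and 0.166 without Control replicates 3 and 5. The part of hippocampal RNA in the higher Adcy8 and Adcy1 was not tested.

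**Figure D4:**
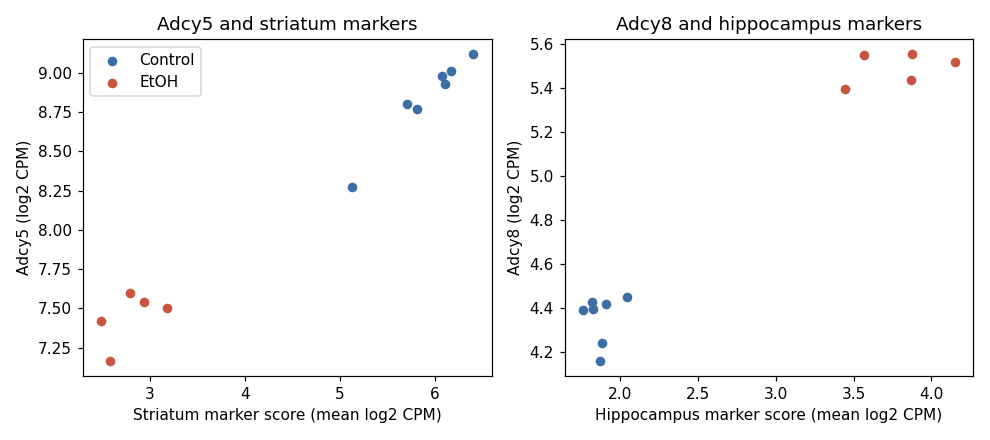
Adcy5 against the striatum marker score (left) and Adcy8 against the hippocampus marker score (right), all axes in log2 CPM, with 1 point per mouse. Adcy5 and the striatum score go together within the Control mice (r = 0.983), while Adcy8 and the hippocampus score separate the groups but show no such relation within Control mice (r = 0.133).

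The members differed in how much they varied among Control mice. The SD of log2 CPM was 0.361 for Adcy9, 0.286 for Adcy1 and 0.278 for Adcy5, against a median of 0.155 over all genes tested. Adcy2, at 0.0911, and Adcy8, at 0.109, were the steadiest members. Adcy1, Adcy6 and Adcy9 varied together in Control mice, with r of 0.977 between Adcy1 and Adcy6 (two-sided exact permutation p = 0.000595, 0.0214 after adjustment over 36 pairs), 0.953 between Adcy1 and Adcy9 (exact permutation, adjusted p = 0.031) and 0.913 between Adcy6 and Adcy9 (exact permutation, adjusted p = 0.031). With the pair of mice farthest from the median of the x measure left out (Control replicates 2 and 5, or 2 and 3 for Adcy6 with Adcy9), r was 0.958, 0.816 and 0.765, and over the remaining 5 mice the smallest possible p for a single pair is 0.3 after adjustment over 36, so that the adjusted test was out of reach. By rank, Spearman's rho was 0.964, 0.893 and 0.964 for the same pairs (exact permutation, adjusted p = 0.05, 0.148 and 0.05), so none was under the threshold of 0.05.

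These members also moved with a trend of counts by gene length. The trend was the median log2 deviation of the 2766 genes with the longest exon models (10.3 kb or more) minus that of the 2767 shortest (up to 3.76 kb). It ran from −0.251 to 0.0589 in Control, lowest in replicates 2 and 3, and from 0.0508 to 0.14 in EtOH. Among Control mice, r with this trend was 0.951 for Adcy9 (two-sided exact permutation p = 0.000198, 0.00179 after adjustment over 9 relations), 0.889 for Adcy1 and 0.879 for Adcy6 (exact permutation, adjusted p = 0.00774 for both). Without Control replicates 2 and 3, r was 0.928, 0.767 and 0.704, with adjusted p-values of 0.075, 0.263 and 0.315 (exact permutation). The first of these is the smallest adjusted p that a single relation can reach with 5 mice, so the test could not be passed there. The exon models of Adcy9, Adcy1 and Adcy6 are 15.9, 12.7 and 6.96 kb long. Other members with long exon models followed the trend less among the Control mice. Adcy3 (12.4 kb) had an r of 0.742, Adcy7 (11.6 kb) of 0.502 and Adcy2 (13.5 kb) of −0.146. The trend was then removed from each library at the value typical of a gene's exon length, not by each gene's own relation with it. Any relation of Adcy1, Adcy6 and Adcy9 with the trend beyond that typical value was left in, and its part in their differences was not tested. After this removal Adcy1 was called at a log2 fold change of 0.57 (SE 0.10, edgeR adjusted p = 0.000608), as were Adcy8 at 1.10 and Adcy5 at −1.42. Adcy9 was at 0.34 (edgeR adjusted p = 0.0294), and Adcy2 went from −0.27 to −0.37. Adcy6 was at 0.47, but its exon model is among those of middle length (5.55 to 7.47 kb). Genes of that length had a median log2 fold change of −0.0018, so this removal could hardly move Adcy6.

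**Figure D5:**
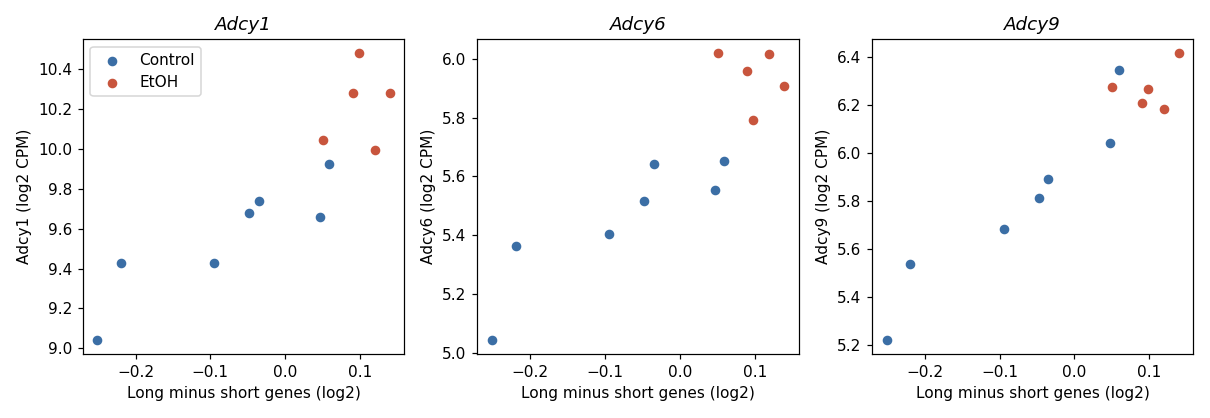
Log2 CPM of Adcy1, Adcy6 and Adcy9 (y axes) against the length trend of each library (long minus short genes, log2, x axes), with 1 point per mouse. Among the 7 Control mice all 3 genes rise with the trend (r = 0.889, 0.879 and 0.951), and the EtOH mice lie at its upper end.

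Of 56 other genes of cAMP signalling, 2 were called higher and 6 lower, with 48 not called and a median log2 fold change of −0.02. Over all genes tested 4.2% were called higher and 4.09% lower. The count of higher genes was thus near the background and that of lower genes above it. Among the lower genes was Pde10a, itself a striatum marker, and the excess was not tested. Upstream of the cyclases, the stimulatory G protein subunit of striatal neurons, Gnal, fell by 1.07 on the log2 scale, from 274 ± 33.6 to 131 ± 9.38 CPM (SD, n = 7 and 5, SE of the log2 change 0.08, edgeR adjusted p = 1.03e-07). The general stimulatory subunit Gnas was not called (log2 fold change −0.25, edgeR adjusted p = 0.047). None of 5 inhibitory G protein alpha subunits was called (Gnao1, the most abundant, at −0.09). Adcyap1, the neuropeptide PACAP that stimulates cyclases through its receptor, fell from 29.3 ± 4.54 to 15.1 ± 4.73 CPM (log2 fold change −0.96, SE 0.16, edgeR adjusted p = 0.000275). Its receptor Adcyap1r1 was not called, at 0.33.

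The soluble cyclase Adcy10, which responds to bicarbonate and not to G proteins, rose by a log2 fold change of 1.15 (SE 0.22, edgeR adjusted p = 0.00118), from 0.663 ± 0.161 to 1.48 ± 0.351 CPM, at a CPM below that of each membrane isoform.

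Of 16 phosphodiesterases, the enzymes that break down cyclic nucleotides, 1 was called higher and 4 lower, beside 4.2% and 4.09% of all genes. Pde10a, abundant in medium spiny neurons and itself 1 of the 18 striatum markers, fell from 342 ± 66.8 to 82.7 ± 12.1 CPM (log2 fold change −2.05, SE 0.13, edgeR adjusted p = 1.24e-08). Pde7b fell by 1.52 (edgeR adjusted p = 1.68e-07), Pde1b by 1.37 (2.92e-07) and Pde1c by 0.89 (0.000315) on the log2 scale. Pde1b and Pde1c are calmodulin-dependent enzymes, and Pde1c was the 1 gene of these whose groups overlapped. Pde11a, which acts on both cAMP and cGMP, rose from 2.28 ± 0.501 to 6.75 ± 1.96 CPM (log2 fold change 1.56, SE 0.18, edgeR adjusted p = 9.51e-06). Of the phosphodiesterases not called, Pde1a had the highest level, with a log2 fold change of 0.23.

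Among the effectors of cAMP no gene was called, and at the background shares of 4.2% and 4.09% few calls would be met in lists this short. They were 2 PKA catalytic subunits (Prkacb at a log2 fold change of −0.03), 4 PKA regulatory subunits (Prkar1b at −0.35), 3 PKA inhibitors (Pkia at 0.09), 2 Epac genes (Rapgef4 at −0.33), 8 A-kinase anchoring proteins (Akap11 at 0.16) and 8 CREB factors and coactivators (Crtc1 at 0.09). Some of them had an adjusted p under 0.05 below the fold minimum, among them Prkar1b (edgeR adjusted p = 0.000175) and Rapgef4 (edgeR adjusted p = 0.0139). Prkar2b, named after its values were seen, was just under the minimum at −0.49 (edgeR adjusted p = 3.01e-05), with every EtOH mouse below every Control mouse.

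The genes whose pattern over the 12 mice was most like that of each called member were taken among 14162 genes with a mean of at least 1 CPM. For Adcy5 they were the dopamine receptor gene Drd1 (r = 0.996), Ppp1r1b, which encodes the phosphoprotein DARPP-32 (0.991), and Gnal (0.991). With group means removed, these values were 0.963, 0.919 and 0.897. Drd1 and Ppp1r1b are themselves among the 18 striatum markers, and the genes were picked for their high r. The values are therefore not separate from the relation of Adcy5 with the striatum score. For Adcy1 they were the calcium release channel gene Ryr2 (0.966, and 0.906 with group means removed), Adamts20 (0.965 and 0.902) and Ptprd (0.964 and 0.888). For Adcy8 they were the relaxin receptor gene Rxfp1 (0.978), Fhip1a (0.976) and Whrn (0.976), and with group means removed the values were 0.291, 0.786 and 0.59, so that the likeness to Rxfp1 lay mostly in the difference between groups. All these points share the libraries and their depth.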

How the data were processed

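Bulk RNA sequencing of total RNA from mouse cortex covered 7 Control and 5 EtOH mice, 1 library per mouse, on the BGI DNBSEQ platform. The authors deposited a table of estimated counts per gene symbol, made per the labels and the study's methods with FastQC 0.11.9, STAR, the GRCm39 genome, Gencode annotation (Release 28) and featureCounts, and they ran DESeq2 for their own comparison. Strand and multi-mapping settings are not given in the sources used here, so reads of overlapping genes on opposite strands could not be told apart. Values of 61 symbols were not whole and were rounded, and 0 columns of the table were left unmatched to a sample.

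Genes were kept with filterByExpr (minimum count 10), which left 16059, scaled with TMM and tested with edgeR 4.0.16 (R 4.3.3), with group as the single term. Benjamini-Hochberg adjustment ran over all 16059 genes, the SE was the log2 fold change divided by the square root of F, and log2 CPM values used a prior count of 2. A gene was called at an adjusted p under 0.05 and an absolute log2 fold change above 0.5. Tested on simulated counts for the EtOH against Control comparison (15931 genes, 200 of them changed by 1 on the log2 scale), the edgeR step called 200 of the 200 with 3 false calls, the DESeq2 1.42.0 step 197 with 1, and the limma 3.58.1 voom step 199 with 2. No pair of libraries of the same group looked like 1 library deposited a second time (lowest chi-square per degree of freedom 7.77). Pairs of a Control and an EtOH library were not compared.

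With 31768076 to 42183029 counts per library, 3 counts correspond to 0.0711 to 0.0944 CPM, and this floor covers counting error only. Exon lengths and GRCm39 coordinates came from Gencode M39, a later release than the authors used, and promoter windows from RefSeq on GRCm38.p6. The named genes were all 9 members, each pathway gene called, the uncalled gene of highest mean CPM in each pathway subgroup, and the 3 genes most correlated with each called member. The values of 1 pathway subgroup are not reported here. The members and lists were chosen with earlier results of these data known, and the relations with the length trend and between members were added after seeing the data. Alternatives were RLE scaling, other filters and fold minimums, DESeq2, limma voom, a replicate block, removal of the length trend, coding length in place of exon length and leaving out each mouse. The authors' table held no columns of their own comparisons.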

Additional observations from a re-analysis of the deposited data

Results flagged for a closer look

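Adcy5 in Control replicate 7 was far from the other Control mice, at 8.27 log2 CPM where the next lowest mouse had 8.77. This was the 1 such value among 24 groups of values checked, and chance alone gives about 1 in 20, or 1.2 here. The same mouse had the lowest striatum score of the Control group, 5.13. Without it the log2 fold change of Adcy5 was −1.48 (SE 0.08, edgeR adjusted p = 2.1e-09).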

How the results depend on the processing

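All 9 members kept their direction under each of the 20 alternatives to the fit, filter, scaling or samples, and Adcy1, Adcy5 and Adcy8 were called in all 20 at the log2 minimum of 0.5, with log2 fold changes of 0.57 to 0.71, −1.48 to −1.35 and 1.10 to 1.16. With no fold minimum, 4 members were called higher (Adcy1, Adcy6, Adcy8 and Adcy9) and 2 lower (Adcy2 and Adcy5), and 9 pathway genes were called higher and 17 lower in place of 2 and 6, where 23.7% of all genes passed without that minimum. With a log2 minimum of 1, 1 member (Adcy8) was called higher and Adcy1 lost its call. With the replicate block, 4 were called higher, Adcy6 and Adcy9 being added. Control replicates 6 and 7 have no EtOH mouse of the same number and add nothing to the group difference in that fit. It therefore compared Control replicates 1 to 5 with the EtOH mice, and what the blocking itself changed was not tested. The replicate numbers only name different mice, and deviations of same-numbered mice correlated at −0.108 to 0.0182, so that the numbers did not pair the samples; 1 of 10 samples correlated best with its own number. Leaving out 1 mouse at a time gave 2 to 4 members called higher, with 4 without Control replicate 5 and 3 without Control replicate 7 or EtOH replicate 2. The Control r between Adcy8 and the hippocampus score went from 0.133 to −0.32 without the mice farthest from the median score. Of the pathway genes, 7 were called lower with the replicate block and without Control replicate 3, 5 or 7 or EtOH replicate 1, and 3 higher without Control replicate 5. Adcy4 and Adcy7 had the fewest counts, 491 or fewer in every library.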
